A study of Mus musculus with 32 samples.

Results

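In total 9 Eya- and Six-family genes were followed through tumors of a pair of mouse models of medulloblastoma, a malignant tumor of the hindbrain. The members were Eya1, Eya2, Eya3, Eya4, Six2, Six3, Six4, Six5 and Six6, which make up 9 of the 37310 genes in the count table. They were taken by symbol, and the group was picked because Eya1 was much higher in 1 of the models, so every difference between the models given for a member below is a description and carries no test.

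EYA proteins are transcriptional coactivators with a tyrosine phosphatase domain at their C terminus. They do not bind DNA themselves and reach their target genes through SIX-family proteins, homeodomain factors that carry the sequence-reading part of the complex. With PAX proteins upstream and DACH proteins as partners, the families form a network that was first described in eye development in the fly and that acts in mammals in the inner ear, kidney, skeletal muscle, sensory placodes and retina. SIX3 and SIX6 are known above all for their part in the forebrain and the eye, where they work with Groucho-type corepressors of the TLE family.

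GMYC tumors came from mice with the transgenes Glt1-tTA and TRE-MYC, in which the Glt1 promoter drives the tetracycline transactivator and this in turn drives MYC in Glt1-expressing cells unless doxycycline is given (6 tumors). GTML tumors came from the sister model, in which the same Glt1-tTA transgene drives MYCN in place of MYC (8 tumors). Both groups are fresh-frozen bulk biopsies of brain tumors, sequenced as total RNA on an Ion Torrent instrument, and the labels give neither the age of the animals nor whether each biopsy came from a separate one, so the spread and the p-values below measure only the variation among these samples. By the study's methods some of the GTML tumors were sequenced for earlier work and others were added, without a label that says which, so a difference in preparation and the model cannot be told apart. Because the biopsies are bulk tissue, fewer cells of a type and less RNA per cell cannot be told apart.

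Libraries held between 4602294 and 7279811 counts. The driver genes matched the labels: Myc was at 33.4 to 166 counts per 1000000 counts of the library, scaled by TMM (CPM) in GMYC tumors and at 2.60 to 8.68 in GTML tumors, and Mycn at 7.65 to 34.4 and 119 to 191 CPM, although reads of the transgene and of the mouse gene cannot be told apart. Markers of the tumor cells (Otx2, Npr3, Syp and Tubb3) summed to 628 to 756 CPM in GMYC and 527 to 768 CPM in GTML tumors. GTML tumor 2 stood apart with Gli1, a target of Sonic hedgehog signaling, at 14.1 CPM, where the other 7 GTML tumors had at most 3.58 CPM. The study described 1 GTML tumor with a signature like that of Sonic hedgehog tumors and compared GMYC tumors with only 7 GTML tumors. Its main text does not number that tumor, and all 8 GTML tumors were kept here. Small nucleolar RNAs took unequal parts of the counts and split both models in the order of the table, at 0.366% to 0.438% in GMYC tumors 1 to 4 and GTML tumors 1 and 2 against 0.151% to 0.272% in the other 8 tumors. This split was found in the counts and is not a batch that the labels name, and values on each side of it are given where it bears on a result.

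How far the members can be told apart by their reads depends on shared sequence. It is shown here for some of the runs that coding sequences of the members had in common, the longest among them. A run of 26 bases shared by Six2 and Six5 is not shown because it lies within that of Six2 and Six4. The Six-family genes shared the stretch that encodes the end of the homeodomain, and the Eya genes shared runs in their conserved C-terminal part, all read from mouse GENCODE transcripts of GRCm38 on the sense strand, 5′ to 3′.
Six2 and Six4: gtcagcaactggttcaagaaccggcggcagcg
Six4 and Six5: caggtcagcaactggttcaagaaccggcg
Six3 and Six5: aagaaccggcgacagcgcgaccgc
Eya2 and Eya3: ggtgtggactggatgaggaaactggcctt
Eya1 and Eya3: acacatctatttttcaatgac
Eya1 and Eya2: ggaaactggccttccgctac
The longest of these runs was 32 bases, and Eya1 shared no more than 21 coding bases with any other member. Over whole exons, 0 of 8042 stretches of 50 bases in Eya1 occurred in another gene, and Eya2, Eya3 and Six5 also shared 0. Six6 shared 143 of 3960 such stretches, all with 4930447C04Rik, Six3 shared 178 of 5377, Six2 21 of 2044, Six4 53 of 10897 and Eya4 5 of 9435, some of those of Six2 and Six3 with each other. A small part of the counts of these 5 members could have been split or dropped.

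Promoters of the members were searched for the binding motifs of the factors concerned, namely the E-box CACGTG, which MYC and MYCN read, and the MEF3 motif TCAGGTTTC, which SIX-family proteins read. RefSeq starts were used for 7 of the 9 members, all but Eya1 and Eya2, giving 9 windows of the 250 bases before a start (GRCm38.p6). The E-box was in 0 of the 9 windows and in 6.02% of all 32851 promoters, both strands read. MEF3 was in 1 window, that of a Six4 start, against 0.387% of all promoters. The window of the other Six4 start (chr12:73113426-73113675) overlaps it and does not hold the motif. The windows of the Eya4 starts overlap as well. The Six4 window with the motif is shown, with the motif in capitals on the reverse strand (GAAACCTGA) from position -99, where -1 is the base before the start. It lies at chr12:73113246-73113495, minus strand, and the other member on that chromosome was Six6, with its window at chr12:72939632-72939881 on the plus strand.
Six4: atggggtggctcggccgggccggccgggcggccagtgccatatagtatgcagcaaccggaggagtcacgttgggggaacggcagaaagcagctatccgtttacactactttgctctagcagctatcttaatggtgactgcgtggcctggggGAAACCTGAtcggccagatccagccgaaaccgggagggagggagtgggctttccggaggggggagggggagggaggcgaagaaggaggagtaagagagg
A match of letters is no evidence that a protein sits there, and no match says only that these letters are not in the window.

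Eya1, on chromosome 1 (ENSMUSG00000025932.7), was the member for which the group was chosen. In GMYC tumors 1 to 6 it was at 133, 8.58, 174, 102, 193 and 259 CPM, with a median of 154. In GTML tumors 1 to 8 it was at 1.94, 6.18, 1.66, 2.55, 0.862, 1.55, 3.58 and 2.75 CPM, with a median of 2.25. Every GMYC tumor was above every GTML tumor, but GMYC tumor 2 came close, at 1.39 times the level of GTML tumor 2, whereas the next lowest GMYC tumor was at 16.5 times that level. The means were 145 ± 85.8 CPM (SD, n = 6) and 2.64 ± 1.66 CPM (SD, n = 8), and without GMYC tumor 2 the GMYC mean was 172 ± 60.2 CPM (SD, n = 5).

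The fitted log2 fold change of Eya1, GTML over GMYC, was -5.75 (SE 0.571; 95% interval -6.96 to -4.54), that is 53.8-fold more in GMYC tumors (23.2-fold to 125-fold). No other of the 21024 genes tested had a larger fold in that direction. Eya1 was also the single member that passed the rule of an adjusted p under 0.01 and a fold above 2 by edgeR. Of all genes tested, 3.22% passed that rule, 1.1% higher in GMYC and 2.11% higher in GTML tumors. These shares depended on the tumors kept. With all tumors 232 genes passed higher in GMYC and 444 higher in GTML tumors, and without GTML tumor 2 these were 586 and 1038. Since the members were chosen on this contrast, nothing is read from 1 of 9. Likewise 1 of 9 members had CPM ranges that did not overlap between the models, against 4.62% of all genes tested.

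Within the tumors of higher small nucleolar RNA share, where 4 GMYC and 2 GTML tumors remained, the fold change of Eya1 was -4.65 and did not pass the rule. Within the lower share, with 2 GMYC tumors at 193 and 259 CPM and 6 GTML tumors at 0.862 to 3.58 CPM, it was -6.69. The side with the smaller fold held GMYC tumor 2, the GMYC tumor lowest in Eya1 at 8.58 CPM. It also held GTML tumor 2, the GTML tumor highest in Eya1 at 6.18 CPM. The part of either tumor in the difference between the sides was not tested. Leaving out each tumor in turn kept the fold change between -6.06 and -5.50.

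**Figure D1:**
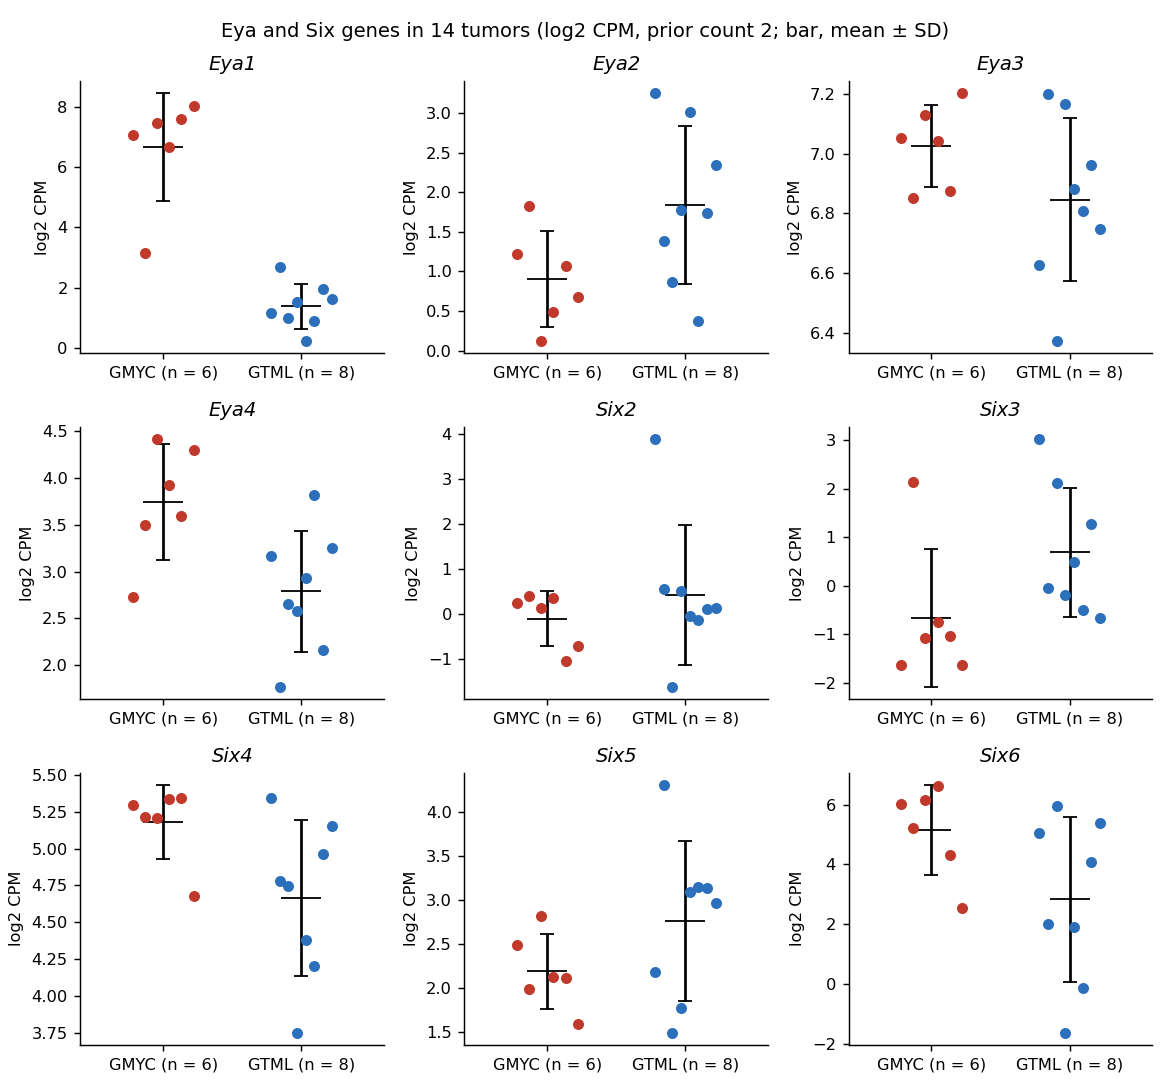
Level of each member in each tumor, as log2 CPM with a prior count of 2, in 6 GMYC tumors (red) and 8 GTML tumors (blue); points are tumors, bars are means and whiskers are SD, and each panel has its own vertical scale. Eya1 is the only panel in which the models do not overlap, and its lowest GMYC point is tumor 2, at 8.58 CPM.

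Markers of other cells also differed in GMYC tumor 2. Their sums were the lowest of the GMYC tumors for 5 astrocyte markers (38.7 CPM, in a range up to 432), 6 markers of cerebellar neurons (14.8 CPM) and 5 oligodendrocyte markers (110 CPM, in a range up to 295). For cerebellar neurons GMYC tumor 1 alone reached 202 CPM. The remaining GMYC tumors were at 30.1 to 58.6 CPM and the GTML tumors at 15.1 to 40.9 CPM. In GMYC tumor 2 the sums were the highest of the GMYC tumors for markers of meninges and fibroblasts (445 CPM), microglia (176 CPM), endothelium (144 CPM) and choroid plexus (8.30 CPM). Between the models 0 genes of these 7 lists passed the rule. Of 5 cerebellar neuron markers tested, 3 had an unadjusted p under 0.05 in edgeR, all higher in GMYC tumors (17.4% of all genes tested in that direction). The median log2 fold change of that list was -1.89, although Cbln1 was at 0.21. Cbln3, among the 3, reached 62.6 CPM in GMYC tumors, but its median was 0.907 CPM there and 1.11 CPM in GTML tumors. The medians of Calb1 and Car8, the others of the 3, were higher in GMYC tumors. The median of the astrocyte markers was -0.85 with 1 of 5 at that mark, higher in GMYC tumors, against 0.04 over all genes tested. Of 5 oligodendrocyte markers 3 were at that mark, 2 higher in GMYC and 1 higher in GTML tumors. Endothelium (1 of 5) and choroid plexus (1 of 3 tested) had theirs higher in GTML tumors. Meninges and fibroblasts and microglia had 0. The part of these cells in the level of Eya1 was not tested. The summed tumor cell markers of GMYC tumor 2, at 654 CPM, lay within the range of the other GMYC tumors, and its Myc, at 145 CPM, lay with GMYC tumors 1, 3, 4 and 5.

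Counts of Myc did not rank the GMYC tumors as Eya1 did. The transgene carries human MYC by the study, and reads were aligned to the mouse genome. How much of the transgene these counts hold is not known. The part of the MYC level in the level of Eya1 was not tested. GMYC tumor 6 had the lowest Myc of its model, at 33.4 CPM against 134 to 166 CPM in the other 5, and the highest Eya1, at 259 CPM. GMYC tumor 2 had the lowest Eya1 with a Myc of 145 CPM. Pou4f1, a POU-domain factor of sensory neurons, was the gene that deviated most nearly as Eya1 did from the mean of its model (Pearson r = 0.853 over 14 tumors, 15324 protein-coding genes compared), at 68.5, 0.422, 60.3, 60.5, 49.7 and 44.3 CPM in GMYC tumors 1 to 6 and at 0.529 to 7.64 CPM in GTML tumors. It had 3 counts in GMYC tumor 2, as in GTML tumor 1, the GTML tumor of fewest, and it was highest among GTML tumors in tumor 2, the same tumor in which Eya1 was highest. Among the other 5 GMYC tumors the likeness did not hold, since tumor 6 was highest in Eya1 and lowest in Pou4f1.

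**Figure D2:**
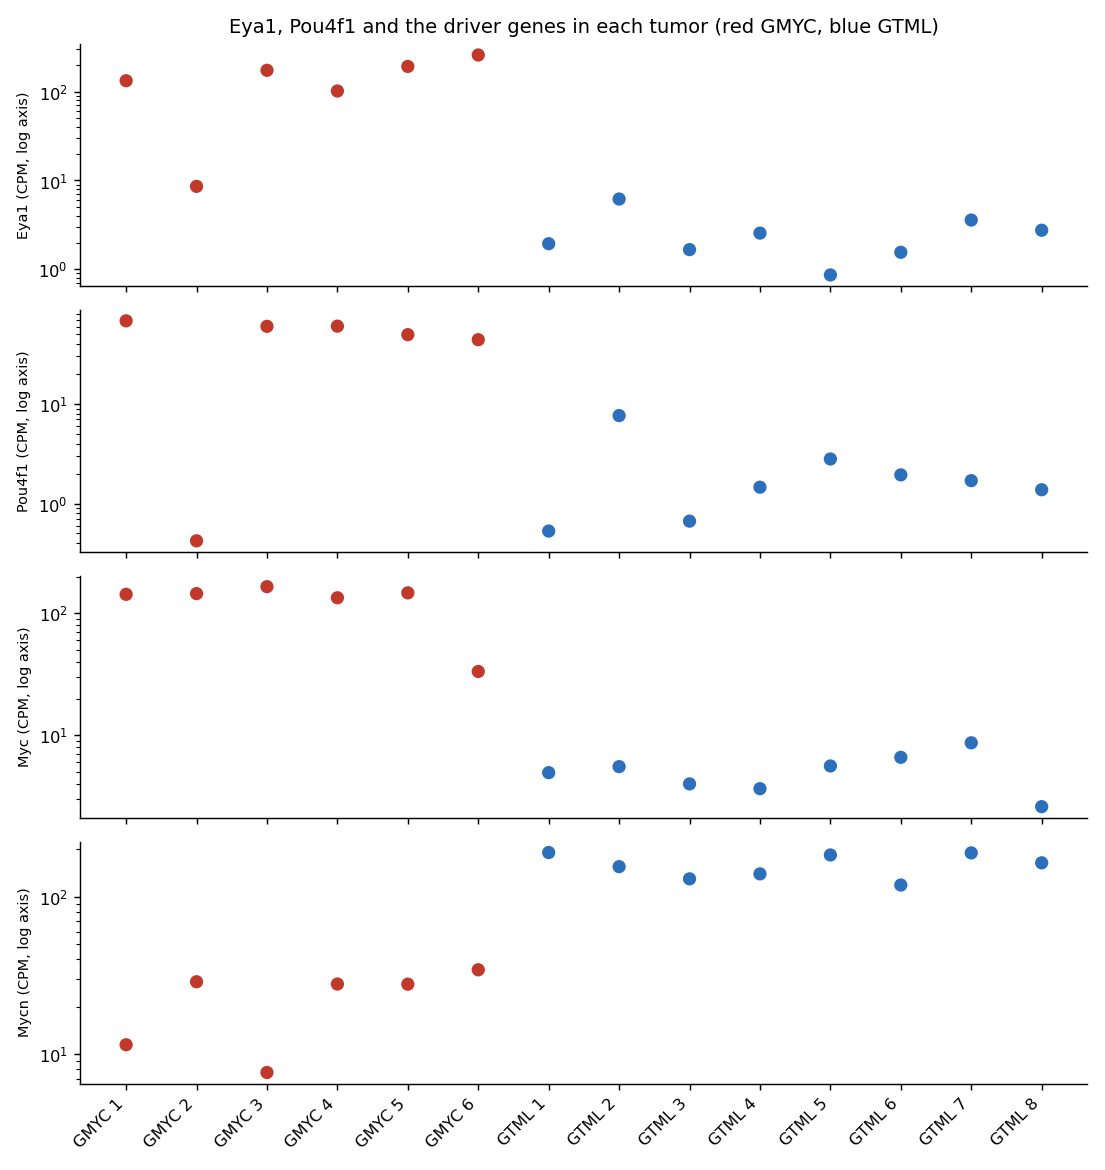
CPM of Eya1, Pou4f1, Myc and Mycn in each of the 14 tumors on log axes, GMYC tumors in red and GTML tumors in blue. In GMYC tumor 2 Eya1 (8.58 CPM) and Pou4f1 (0.422 CPM) are low while Myc (145 CPM) is not, and in GMYC tumor 6 Myc is low (33.4 CPM) while Eya1 is at its highest (259 CPM).

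The other genes that deviated like Eya1 were Fam181b (r = 0.850), Harbi1 (r = 0.831), a gene derived from a transposase, Zfpm2 (r = 0.830), a zinc finger cofactor of GATA factors, and Haus7 (r = 0.83), a subunit of the augmin complex of the spindle. Within the 6 GMYC tumors alone, Harbi1 followed Eya1 most closely of the 5 (r = 0.994, rho 0.943). Within the 8 GTML tumors Zfpm2 had the highest r (0.824, rho 0.524), with GTML tumor 2 at 12.8 CPM and the next at 3.69 CPM. Haus7 had the highest rho there (0.714, r = 0.750). Pou4f1 had r = 0.944 but rho -0.086 within GMYC tumors and r = -0.810 without GMYC tumor 2, so its r rested on that tumor. Without it Zfpm2 likewise went from r = 0.858 to -0.153, and Txndc5, named below, from 0.891 to -0.074. The other genes named here kept r between 0.415 (Asl) and 0.933 (Harbi1). Over all 14 tumors, with the difference between the models left in, the genes most like Eya1 were Tufm (r = 0.948), a mitochondrial translation elongation factor, Bckdk (r = 0.941), the kinase of branched-chain keto acid dehydrogenase, Txndc5 (r = 0.939), a disulfide isomerase of the endoplasmic reticulum, Asl (r = 0.925), argininosuccinate lyase of the urea cycle, and Tmem160 (r = 0.922). These correlations describe 14 tumors and say nothing of control of a gene by another, and those over all 14 tumors carry the difference between the models for which Eya1 was chosen.

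Eya3, on chromosome 4, was the most even member. It had 115 to 147 CPM in GMYC tumors (median 132) and 82.5 to 147 CPM in GTML tumors (median 115). The ranges overlapped, although 4 of the 8 GTML tumors lay below every GMYC tumor, and the log2 fold change was -0.16 (SE 0.124; 95% interval -0.43 to 0.10), an interval that reaches at most 1.34-fold more in GMYC tumors.

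Eya4, on chromosome 10, which acts in the inner ear and heart, was at 6.32 to 21.0 CPM in GMYC tumors (median 13.3) and at 3.09 to 13.8 CPM in GTML tumors (median 6.66). The ranges overlapped, with 3 of the 6 GMYC tumors inside the GTML range and 4 of the 8 GTML tumors inside the GMYC range. The log2 fold change was -0.96 (SE 0.334; 95% interval -1.66 to -0.25). It was -1.17 and -1.03 on the higher and lower side of the small nucleolar RNA split.

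Eya2, on chromosome 2, a member known from muscle precursors and placodes, had the opposite direction and a low level. It was at 0.765 to 3.24 CPM in GMYC tumors (median 1.52) and at 0.970 to 9.17 CPM in GTML tumors (median 3.06). GTML tumors 1, 5 and 8, at 9.17, 7.76 and 4.74 CPM, were above every GMYC tumor, whereas the other 5 GTML tumors were within the GMYC range. The log2 fold change was 1.25 (SE 0.497; 95% interval 0.20 to 2.31), and it was 0.97 without GTML tumor 1. Eya1, Eya2 and Eya4 were the 3 of 9 members with an unadjusted p under 0.05 in edgeR, a mark that 37.8% of all genes tested reached.

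Levels of different genes were compared per length, as transcripts per 1000000 (TPM) over the summed exon length of each gene. In GMYC tumors Eya3 stood at 78.3 ± 8.83 TPM (SD, n = 6) and Eya1 at 63.5 ± 38.7 TPM, which did not differ beyond their spread, followed by Eya4 at 5.06 ± 2.00 TPM and Eya2 at 1.92 ± 0.955 TPM. In GTML tumors Eya3 stood at 79.1 ± 13.6 TPM (SD, n = 8), far above Eya2 at 5.22 ± 3.69 TPM, Eya4 at 2.99 ± 1.48 TPM and Eya1 at 1.26 ± 0.700 TPM. Eya1 was thus the lowest of the 4 Eya genes in GTML tumors, although the SDs of the lower 3 overlapped.

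Summed over the 4 Eya genes, GMYC tumors held 149 ± 46.4 TPM (SD, n = 6; 77.4 to 219) and GTML tumors 88.6 ± 13.5 TPM (SD, n = 8; 65.2 to 104). GMYC tumor 2 was at the bottom of its range, inside that of the GTML tumors, and the other 5 GMYC tumors were above it. Eya1 supplied 4.63% to 53.8% of the Eya sum in GMYC tumors, with a median of 42.9%, and 0.454% to 2.84% in GTML tumors, with a median of 1.27%. It was the most abundant Eya gene in GMYC tumors 5 and 6, and Eya3 was in the other 12 tumors.

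**Figure D3:**
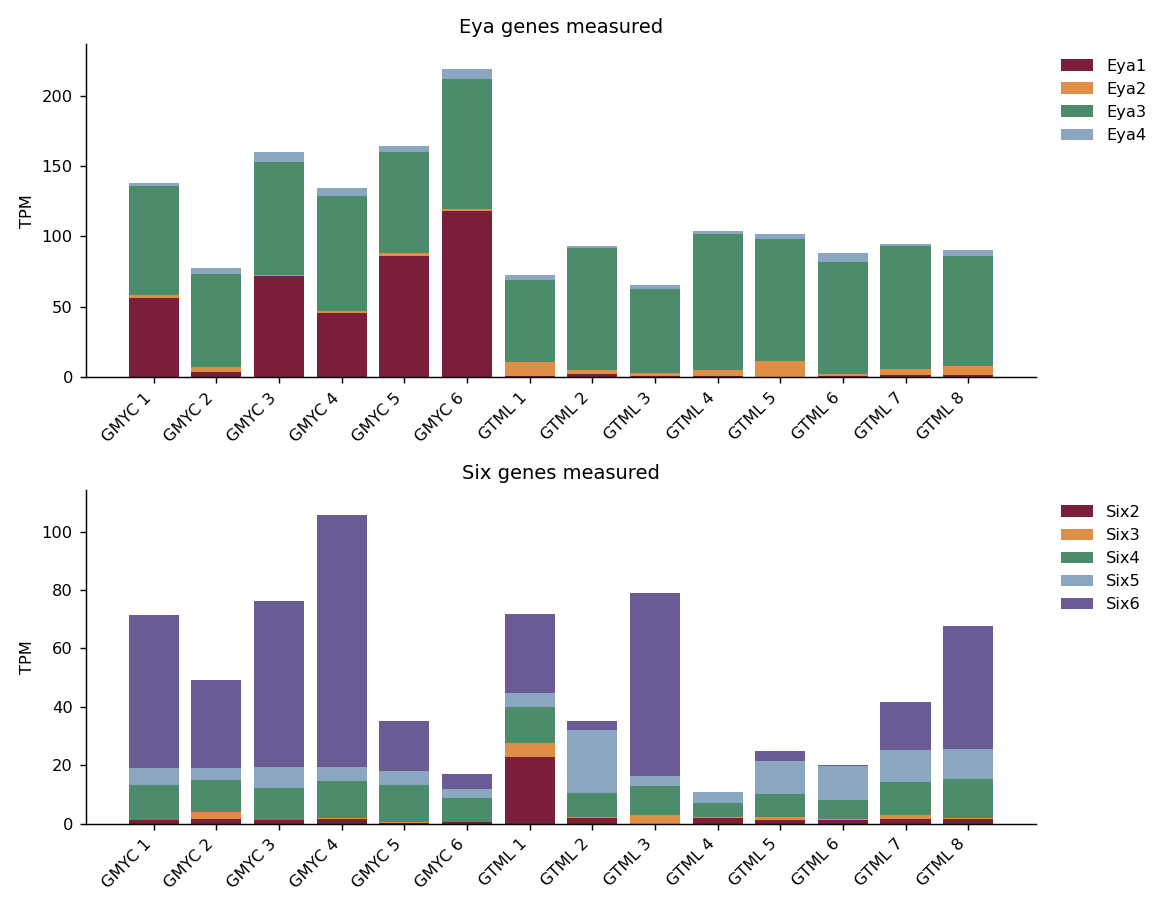
TPM of the Eya genes (top) and the Six-family genes (bottom), stacked for each of the 14 tumors; vertical axes start at 0. Eya3 is of like height in all tumors, Eya1 adds to it in 5 of the 6 GMYC tumors, and the height of the Six-family bars follows Six6, which runs from a large part in GMYC tumor 4 to nothing in GTML tumor 4.

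Among the Six-family genes, Six6 had the highest mean per length in both models, at 41.3 ± 29.8 TPM in GMYC (SD, n = 6) and 19.5 ± 23.0 TPM in GTML tumors (SD, n = 8). Its SDs were too wide to part it from the next gene in either model. Six6 was the most abundant Six-family gene in 5 of the 6 GMYC tumors but in only 4 of the 8 GTML tumors. Six5 was in GTML tumors 2, 5 and 6, and Six4 was in GTML tumor 4 and GMYC tumor 6. In GTML tumors the median share of the Six-family sum was 31.4% for Six5 and 26.2% for Six6. By mean, Six6 was followed in GMYC tumors by Six4 at 11.3 ± 1.72 TPM, Six5 at 4.92 ± 1.43 TPM, Six2 at 1.05 ± 0.551 TPM and Six3 at 0.468 ± 0.969 TPM. There Six4, Six5 and Six2 were each apart by more than their SDs, and Six2 and Six3 were not. In GTML tumors Six5 at 9.73 ± 5.96 TPM and Six4 at 9.31 ± 2.98 TPM were level, and Six2 at 3.97 ± 7.60 TPM and Six3 at 1.42 ± 1.63 TPM followed, with SDs that overlapped from each gene to the next. The sum of the 5 was 59.1 ± 31.9 TPM in GMYC (16.8 to 106) and 43.9 ± 25.8 TPM in GTML tumors (10.9 to 78.9), and the ranges overlapped.

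Six6, on chromosome 12, which acts in the retina and the hypothalamus and pituitary, varied more between tumors of a model than between the models. In GMYC tumors 1 to 6 it was at 64.0, 37.0, 70.5, 98.8, 19.8 and 5.51 CPM. In GTML tumors 1 to 8 it was at 32.8, 3.74, 61.4, 0, 3.45, 0.582, 16.6 and 41.1 CPM, and the count of 0 in GTML tumor 4 allows up to 0.547 CPM. Tumors with high and with low levels thus occurred in both models, and the log2 fold change was -1.30 (SE 0.867; 95% interval -3.13 to 0.54) and -2.56 with limma-voom.

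The direction of Six6 turned across the small nucleolar RNA split, from -1.87 on the higher side to 0.69 on the lower side, where the 2 GMYC tumors were at 5.51 and 19.8 CPM and the 6 GTML tumors at 0 to 61.4 CPM. Six6 shares 192 exon bases with 4930447C04Rik, a gene on the opposite strand, and whether reads were counted by strand was not given in the sources used here, so part of the count of either may belong to the other. That gene had 0.582 to 168 CPM in GTML tumors and 22.1 to 82.3 CPM in GMYC tumors.

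Six4, also on chromosome 12, a factor of muscle precursors, was at 25.3 to 40.2 CPM in GMYC tumors (median 38.0) and at 13.1 to 40.4 CPM in GTML tumors (median 26.8). Of the 6 GMYC tumors 5 lay between 36.7 and 40.2 CPM, GMYC tumor 6 was at 25.3 CPM, and 7 of the 8 GTML tumors were below 36.7 CPM. The ranges overlapped, and the log2 fold change was -0.46 (SE 0.223; 95% interval -0.93 to 0.02).

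Six4 and Six6 ran together across tumors. In GTML tumors, tumor 4 was lowest in both and tumor 6 came next in both, and tumors 1, 7 and 8 were the highest 3 in Six4 and among the highest 4 in Six6. In GMYC tumors, tumor 6 was lowest in both. Of 36 pairs of members, this pair had the highest correlation of deviations from the model means in log2 CPM (r = 0.873 over 14 tumors), a pair picked after the values were seen. Within the 8 GTML tumors r was 0.887 with rho 0.738, and r was 0.798 without the 2 tumors farthest from the median of Six4. Within the 6 GMYC tumors r was 0.808 with rho 0.257, and r was 0.687 over the 4 tumors left without the 2 farthest from the median of Six4. The pair of lowest correlation was Eya1 and Six3 (r = -0.644), in which GMYC tumor 2 was lowest in Eya1 and highest in Six3 among GMYC tumors.

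**Figure D4:**
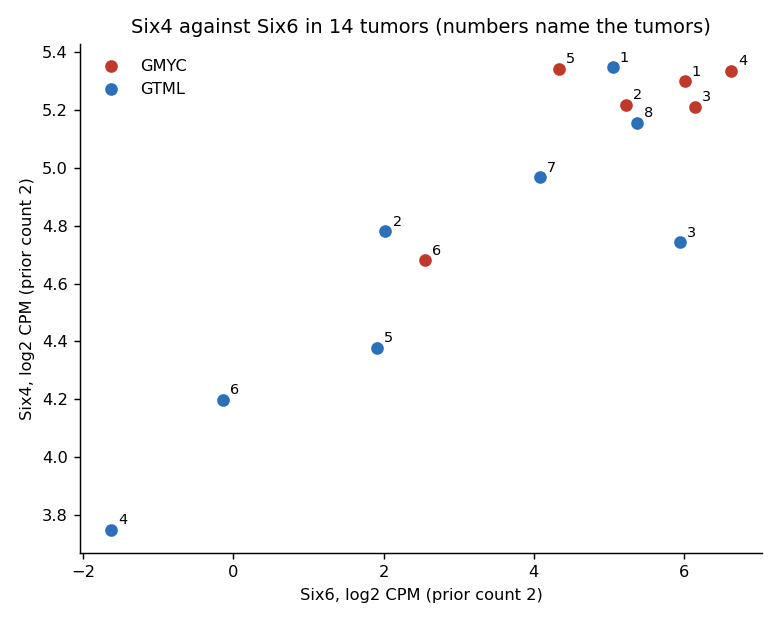
Six4 against Six6 in log2 CPM (prior count of 2), 1 point per tumor, numbered within each model (red GMYC, blue GTML). GTML tumors 4 and 6 and GMYC tumor 6 lie toward the lower left, and the pair has r = 0.873 for deviations from the model means over 14 tumors.

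Six5, on chromosome 7, a gene next to Dmpk and known from work on myotonic dystrophy, was at 2.69 to 6.73 CPM in GMYC tumors (median 4.03) and at 2.50 to 19.5 CPM in GTML tumors (median 7.84). In all 5 GTML tumors were above every GMYC tumor, GTML tumor 2 by the most, GTML tumors 1 and 4 were within the GMYC range, and GTML tumor 3 was just below it. The log2 fold change was 0.81 (SE 0.411; 95% interval -0.06 to 1.68), and 0.46 without GTML tumor 2. Its neighbor Dmpk, a protein kinase gene, had a log2 fold change of the same size, 0.81 (SE 0.229), and did not pass the rule (edgeR adjusted p = 0.0232).

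Six2, on chromosome 17, which keeps nephron progenitors undifferentiated in the kidney, was near the detection limit in 13 of the 14 tumors. In GMYC tumors it was at 0.161 to 0.985 CPM (median 0.813), and in GTML tumors at 0 to 14.5 CPM (median 0.759), the 0 in GTML tumor 3 allowing up to 0.499 CPM. GTML tumor 1 alone, at 14.5 CPM from 82 counts, was far above the rest, the next being at 1.14 CPM. The log2 fold change was 1.83 (SE 0.919; 95% interval -0.12 to 3.78). Six2 could be tested under the filter of a CPM above 1 in 3 tumors only through GTML tumors 1, 2 and 4, and not when any of them was left out. The fold change was 0.10 with DESeq2 and 0.53 with limma-voom. GTML tumor 1 was also highest of all tumors in Eya2 (9.17 CPM) and Six3 (7.76 CPM), and its summed markers of meninges and fibroblasts, at 264 CPM, and of skeletal muscle, at 10.8 CPM, lay within the ranges of the other GTML tumors.

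Six3, also on chromosome 17, the forebrain member, was at 0 to 4.08 CPM in GMYC tumors (median 0.157) and at 0.306 to 7.76 CPM in GTML tumors (median 0.864). In GMYC tumors 1 and 6 it had 0 counts, which allows up to 0.431 and 0.424 CPM. GMYC tumor 2 held 29 counts, or 4.08 CPM, and the other 5 GMYC tumors had 2 counts or fewer, which at this depth cannot be parted from the lowest GTML tumors, also at 2 counts. The log2 fold change was 1.40 (SE 0.995; 95% interval -0.71 to 3.51), but 3.95 without GMYC tumor 2 and 0.71 without GTML tumor 1, so 1 tumor in each model set its size, and 2.22 with limma-voom. Six3 shares 106 and 168 exon bases with the opposite-strand genes Six3os1 and Gm28528, which were not analysed here.

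The wider network was described with 27 genes that act with EYA- and SIX-family proteins, 14 partners such as the Pax, Dach and Tle genes and 13 targets. Of these 21 were tested, 0 passed the rule higher in GMYC tumors, 3 passed it higher in GTML tumors and 18 did not pass. The background for the direction of GTML tumors was 2.11% of all genes tested. The median log2 fold change of the 21 was 0.33, against 0.04 over all genes tested. Of the 21, 8 had an unadjusted p under 0.05, all higher in GTML tumors, where 20.4% of all genes tested reached that mark in that direction and 37.8% in either. Pax7 and Fgf8, which are among these 8, passed the filter on low counts only through GTML tumors. The filter thus fixed their direction, and Pax7 is also among the 3 that passed the rule.

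Pax7, a factor of the dorsal neural tube, midbrain and muscle satellite cells, was at 0 to 0.844 CPM in GMYC tumors and at 0.976 to 11.9 CPM in GTML tumors. It passed the filter only through GTML tumors, so that it had to be higher there, and its call is given as a description. Its log2 fold change was 3.92 (SE 0.685, edgeR adjusted p = 0.00352), and it no longer passed the rule without GMYC tumor 1 or without GMYC tumor 3 (edgeR adjusted p = 0.0102 and 0.0122). Tle2, a corepressor of the Groucho type, rose from 1.00 to 2.69 CPM in GMYC tumors to 6.83 to 17.3 CPM in GTML tumors, a log2 fold change of 2.73 (SE 0.350, edgeR adjusted p = 0.000742). Ccnd1, the cyclin D1 gene and a target that EYA- and SIX-family proteins are known to activate, was at 14.4 to 75.8 CPM in GMYC and 86.5 to 156 CPM in GTML tumors, a log2 fold change of 1.71 (SE 0.291, edgeR adjusted p = 0.00323). The ranges of Tle2 and Ccnd1 did not overlap (4.62% of all genes tested), and Tle2 and Ccnd1 differed in the direction opposite to that of Eya1. The ranges of Pax7 did not overlap either, but nothing is read from its direction, which the filter fixed.

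Within the small nucleolar RNA split, none of the 3 passed on the higher side, where Pax7 was below the filter, and only Ccnd1 did on the lower side, with log2 fold changes of 2.51 and 2.45 for Tle2 and of 1.73 and 1.82 for Ccnd1 on the higher and lower side, and of 6.12 for Pax7 on the lower side. The largest change among the 18 that did not pass was that of Fgf8, a growth factor of the midbrain-hindbrain boundary, at 2.25 (SE 0.738, edgeR adjusted p = 0.0415), from 0 to 0.990 CPM in GMYC and 0 to 2.37 CPM in GTML tumors. Like Pax7, Fgf8 passed the filter only through GTML tumors, so that it had to be higher there, and its values are a description. Dach1, the retinal determination cofactor, was at 100 ± 12.5 CPM in GMYC (SD, n = 6) and 87.8 ± 33.9 CPM in GTML tumors (SD, n = 8), a log2 fold change of -0.19 (SE 0.224; 95% interval -0.67 to 0.28). Of 8 factors of the eye field and photoreceptors 0 passed, with 1 at an unadjusted p under 0.05 in edgeR, and of 9 genes of the Sonic hedgehog pathway 0 passed, with 4 at that mark, which 37.8% of all genes tested reached. GTML tumor 2, highest in Gli1, was the GTML tumor of highest Eya1 (6.18 CPM) and Six5 (19.5 CPM), and the fold change of Eya1 without it was -6.06.

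**Figure D5:**
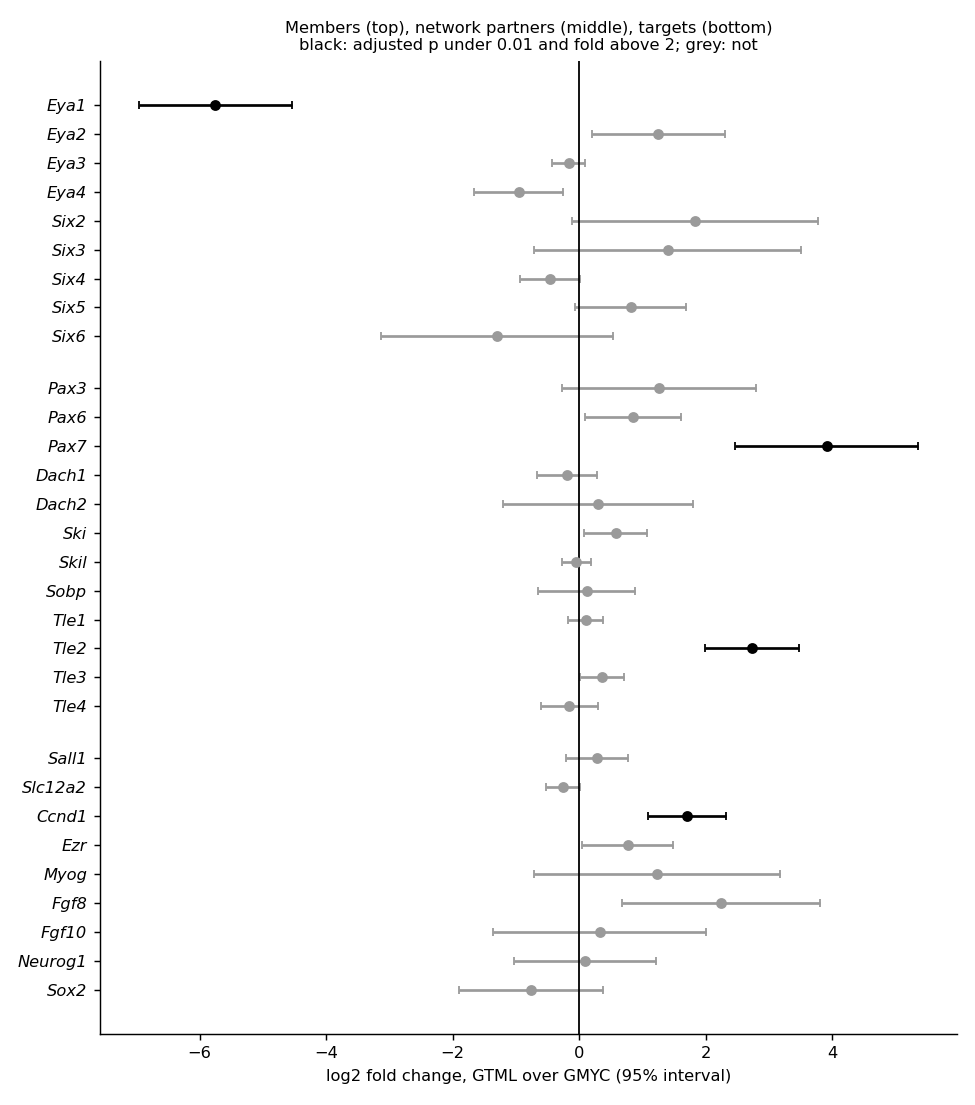
Log2 fold change of GTML over GMYC tumors with 95% intervals from edgeR for the 9 members (top), the tested network partners (middle) and targets (bottom); black marks an adjusted p under 0.01 with a fold above 2. Eya1 lies far to the left at -5.75, and the 3 black network genes, Pax7, Tle2 and Ccnd1, lie to the right at 1.71 to 3.92.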

How the data were processed

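The deposited table held raw read counts per gene for 14 tumors. Per the study's methods, the authors aligned Ion Proton reads to mouse mm9 with STAR and then Bowtie, and counted them per GENCODE gene with featureCounts; the submitters' processing notes name STAR 2.4.0, Bowtie2 2.2 and Subread 1.5.2. Strand and duplicate handling were not given in the sources used here. A second table, of 18 columns of cultured cells, was not used because its column names match no sample label, so the comparisons of cell lines and of onalespib treatment were not run.

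Of all genes, 21024 exceeded a CPM of 1 in 3 or more tumors and were fitted by edgeR 4.0.16 (quasi-likelihood test, TMM, R 4.3.3) over 6 GMYC and 8 GTML tumors. A call needed a Benjamini-Hochberg adjusted p under 0.01 over all genes tested and a fold above 2. DESeq2 1.42.0 and limma-voom (limma 3.58.1) were alternatives. Printed CPM are counts over TMM-scaled library totals (the filter used unscaled totals), and TPM use summed exon lengths of 32620 genes. A count of 0 was given the limit of 3 counts, which covers counting error only. In simulated data of this comparison (20592 genes), 66 of 100 genes changed by 1.5 on the log2 scale and 98 of 100 changed by 3 were called, with 0 calls among 20392 unchanged genes. The changed genes were drawn only from genes above a minimum mean level. These shares therefore do not cover genes of low counts such as Eya2, Six2 and Six3. No replicate pair agreed within sampling noise (lowest chi-square per degree of freedom 5.67 over 43 pairs).

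The members and lists were chosen with earlier results of these data known. Named beside the members were the driver genes, called genes of each list and up to 3 of largest change, the neighbor and overlapping genes, and the 5 genes most like Eya1 by either correlation; Dach1, Gli1 and 4930447C04Rik were added after values were seen. Gene symbols and lengths came from GENCODE for GRCm38, promoter sequences from RefSeq (GRCm38.p6), and no coordinates were mixed with mm9.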

Additional observations from a re-analysis of the deposited data

Results flagged for a closer look

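A sample was marked where, in log2 CPM, its gap to the nearest other tumor of its model exceeded Dixon's critical share of the range of the model. This held in 11 of 48 groups of tumors examined, where chance alone gives about 2.4, but the groups share tumors and 5 of the 11 are of genes named for their likeness to Eya1, so the excess is not read.

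Among members, Eya1 was lowest in GMYC tumor 2 at 8.58 CPM, with the next tumor at 102 CPM (gap 0.723 of the range). Six3 was highest in the same tumor at 4.08 CPM, with the next at 0.27 CPM (0.768). Six4 was lowest in GMYC tumor 6 at 25.3 CPM, with the next at 36.7 CPM (0.802). Six2 was highest in GTML tumor 1 at 14.5 CPM, with the next at 1.14 CPM (0.606).

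Among the other genes, GMYC tumor 2 was lowest in Pou4f1 at 0.422 CPM (next 44.3, gap 0.904), in Txndc5 at 117 CPM (next 181, gap 0.641) and in Harbi1 at 21.4 CPM (next 40.9, gap 0.724). GMYC tumor 6 was lowest in Myc at 33.4 CPM (next 134, gap 0.869) and highest in Tle2 at 2.69 CPM (next 1.38, gap 0.698). GTML tumor 2 was highest in Fam181b at 7.81 CPM (next 1.70, gap 0.572) and in Zfpm2 at 12.8 CPM (next 3.69, gap 0.601). Pou4f1, Txndc5, Harbi1, Fam181b and Zfpm2 were named for their likeness to Eya1, so their marks are not independent of the values of Eya1.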

How the results depend on the processing

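The group was picked because Eya1 was much higher in these GMYC tumors, so its calls below are a description and no support is read from them. Eya1 was the 1 member called with DESeq2, limma-voom, library size without TMM, no filter on low counts, at least 10 counts in 3 tumors, an adjusted p under 0.05 with no fold threshold, the side of the small nucleolar RNA split as a covariate, and each tumor left out in turn (1 to 1). No member was called within the higher small nucleolar RNA share (0 of 7 tested) or under the replicate block (0). Of the network genes 3 were called in the first 5 of these settings and with that covariate, 4 at an adjusted p under 0.05, 0 within the higher share, 1 within the lower share, and 2 to 4 with a tumor left out. The fold change of Six6 turned to 0.69 within the lower share, and no other member changed direction in a setting that tested it. The split sides hold 6 and 8 tumors, and the causes of the changes were not tested.

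Calls over all genes, higher in GMYC and in GTML, were 232 and 444, against 579 and 1312 with DESeq2, 431 and 418 with limma-voom, 149 and 269 with no filter, 2041 and 2418 at the looser threshold, 127 and 169 with the covariate, 2 and 0 within the higher and 44 and 83 within the lower share. With a tumor left out they ran from 40 and 74 (without GMYC tumor 3) to 586 and 1038 (without GTML tumor 2).

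Tumors of both models carry the numbers 1 to 6, but the numbers did not pair them: deviations of same-numbered tumors correlated at 0.24, -0.02, -0.04, -0.21, 0.03 and -0.14. A replicate block over the 12 numbered tumors gave 0 network genes called and 1 and 2 calls over all genes, with Eya1 at -5.70. Comparisons of cultured lines and of onalespib were not run. Low counts limit Eya2, Six2 and Six3, which were under 3 CPM in most tumors.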
